A study of Mus musculus with 12 samples.

Results

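The genes of somatic DNA repair were examined for meiotic break hotspots at their ends and inside them in the testis of adult male mice. They are a list of 53 protein-coding genes, chosen by name and known function with earlier results of these data in view, out of 21627 protein-coding genes of the RefSeq annotation. All 53 were found by symbol. They comprise 26 genes of homologous recombination, 10 Fanconi genes, 6 genes of end joining, 3 of mismatch repair and 8 of the damage checkpoint. Of these, 52 are autosomal and 1, Fancb, lies on X.

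Hotspots came from DMC1 single-stranded DNA sequencing (SSDS) of whole testis, which recovers the single-stranded DNA that the meiotic recombinase DMC1 coats beside a double-strand break. The series has 2 such samples of wild type C57BL/6JCrl (B6) mice and 2 of knockout mice with the allele Ankrd31 tm1Atot, and 1 deposited hotspot list for each genotype. The sources used here do not give the strain of the knockout mice, so genotype and strain cannot be told apart. ANKRD31 belongs to the set of proteins through which meiotic breaks are made. Not analysed here were the other 8 of 12 samples, H3K4me3 and input libraries at 13 days of age. A list holds no value per animal. The spread within a genotype is therefore unknown, and the genotypes were compared without a test.

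The wild type list held 13480 hotspots with 4376692 reads, and the knockout list 22034 hotspots with 4203380 reads. Strength, the authors' value for a hotspot, is its reads minus an estimated background. The median strength was 152 in the wild type list and 105 in the knockout list. A hotspot of 1 list that overlapped one of the other by at least 1 bp was called shared, and the remainder knockout-only or wild-type-only. A site missing from a list can still have breaks below the calling threshold: the weakest listed hotspots reached 18 (wild type) and 16 (knockout).

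As background, homologous recombination repairs a double-strand break by copying an intact template. The MRN complex and its partners trim the ends, RPA covers the exposed strand, and mediators such as BRCA2 help to load the recombinase on it. The Fanconi proteins undo crosslinks between strands, end joining seals broken ends directly, mismatch repair removes wrongly paired bases, and the checkpoint kinases signal damage to the cell cycle. Many of these proteins also act in meiosis, on the breaks that DMC1 marks. The assay maps where breaks fall on the genes. It does not measure how much the genes are expressed or how well repair works.

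In the wild type list 1 of the 53 genes (1.89%, exact 95% binomial interval 0.0478 to 10.1) had a hotspot centred within 1 kb of either of its ends, as had 1.99% of all protein-coding genes. In the knockout list 28 of 53 (52.8%, 38.6 to 66.7) had one, against 27.1% of all protein-coding genes. For 27 of them (50.9%, 36.8 to 64.9) the hotspot was knockout-only, against 25.5% of all protein-coding genes. Intervals here cover counting error over genes only.

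The share depends on how a hotspot near ends of more than 1 gene is counted. When each hotspot counted only for the gene whose end was nearest to its centre, a choice made after seeing the data, 17 of the 53 genes (32.1%, 19.9 to 46.3) held a knockout-only one at an end, against 22.7% of all protein-coding genes. The background value then lies within the interval of the repair genes.

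Each pathway holds few genes. A knockout-only hotspot lay at an end of 13 of 26 genes of homologous recombination (50%, 29.9 to 70.1), 6 of 10 Fanconi genes (60%, 26.2 to 87.8) and 3 of 6 genes of end joining (50%, 11.8 to 88.2). It lay at an end of 2 of 3 mismatch repair genes (66.7%, 9.43 to 99.2) and 3 of 8 checkpoint genes (37.5%, 8.52 to 75.5). The 5 intervals overlap, so the data give no order of the pathways. A wider list of 90 other repair genes, among them the base and nucleotide excision genes, had 43 with a knockout-only hotspot at an end (47.8%, 37.1 to 58.6). Their wild type count was 3 of 90 (3.33%, 0.693 to 9.43). The strongest knockout-only hotspots of that list lay at ends of Paxip1 (strength 483) and the translesion polymerase gene Rev1 (467). Next came the end-joining nuclease gene Dclre1c (315), Sfr1 (276), and Rev3l, another translesion polymerase gene (212). That of Dclre1c was centred 737 bp from its 3' end and 38 bp from the start of the neighbouring gene Suv39h2.

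**Figure D1:**
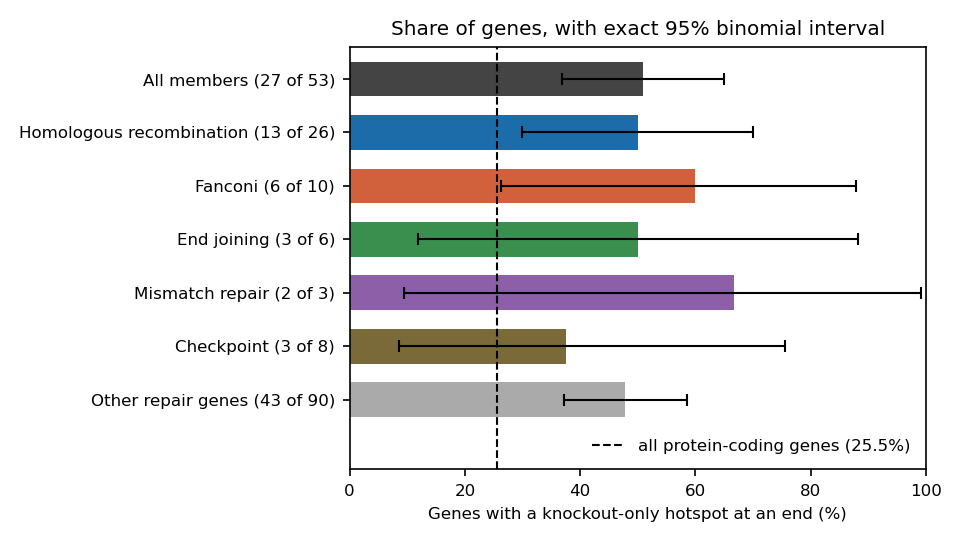
Percentage of genes with a knockout-only hotspot centred within 1 kb of an end, for all 53 repair genes, each pathway and 90 other repair genes. Lines are exact 95% binomial intervals, and the dashed line is the share of all protein-coding genes (25.5%). The bar of all 53 genes stands at 50.9%, and the intervals of the 5 pathways overlap.

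The strengths of these hotspots were close to those at genes in general. The 28 knockout-only hotspots at ends of the 27 genes ranged from 35 to 303 with a median of 81.5, beside a median of 94 for the 4919 knockout-only hotspots at ends of all protein-coding genes. Of the 28, 11 exceeded the median of the knockout list and 8 that of the wild type list. Their strengths added up to 0.0828% of the total over the knockout list.

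Among the genes that prepare and coat the broken ends, Nbn, a subunit of the MRN complex, had a knockout strength of 207, and no wild type hotspot. Rad50, another subunit of that complex, had 55. Mre11a, its nuclease, had no hotspot of either list at an end or inside, and neither had the exonuclease gene Exo1. Rbbp8, which encodes the resection factor CtIP, had none at an end. Of the subunit genes of RPA, Rpa3 had 268 and Rpa1 had 43, while Rpa2 had none of either list.

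Among further genes of homologous recombination, Rad51d had 2 knockout-only hotspots at an end, of strength 144 and 60. Rad51b had 138, Xrcc3 89, Xrcc2 35 and Rad51c 35. The wild type list had none at an end of any of them. The last 2 are below the 5th percentile of the knockout list (40), so they sit at the edge of what was called.

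Of the mediators, Bard1, whose product pairs with BRCA1, had a strength of 201 and Brca1 itself 69. Brca2 and Palb2, whose products act together after BRCA1, had no hotspot of either list at an end or inside. Rad52, a strand-annealing gene, had 57, and Rad54l, which encodes a DNA motor protein, had none. Of the nuclease genes, the scaffold gene Slx4 had 62, while Mus81 and Eme1, whose products form 1 nuclease, had none.

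The genes of helicases and of the dissolution complex formed the only group of homologous recombination with no knockout hotspot at an end, in 0 of 4 genes (0%, 0 to 60.2). The share of all protein-coding genes, 27.1%, lies within that interval. They are Blm, Wrn, Top3a and Rmi1. Wrn, the gene of the Werner helicase, was instead the 1 gene of the 53 at whose end the wild type list had a hotspot. That hotspot, on chromosome 8 from 33232862 to 33234810, had a strength of 67 and was centred 536 bp from the gene's lower coordinate end. No knockout hotspot overlapped it.

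The 6 Fanconi genes that had one all encode parts of the core complex, which has 8 genes in the list. Fancf, an adaptor of that complex, had the strongest knockout-only hotspot at an end among the 53 genes, with 303. Fancb on X had 184, the translocase gene Fancm 126, Fancg 77, Fanca 63 and Fancl, the ubiquitin ligase gene of the complex, 61. Fancc and Fance had none at an end. Fancd2 and Fanci, which encode the pair of proteins that the core complex modifies, had no hotspot of either list at all. For this pair the interval of the share was 0 to 84.2%, which overlaps that of the core complex.

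In end joining, Prkdc, the gene of the DNA-dependent protein kinase, had 236. Xrcc4, whose product holds DNA ligase IV, had 82 and Nhej1, its partner, 81. Lig4, the ligase gene, had no hotspot of either list, and the Ku genes Xrcc5 and Xrcc6 had none at an end. In mismatch repair all 3 genes had a knockout hotspot at an end: Msh6 had 194 and Pms2 180, both knockout-only, and Msh3 had a shared one. Of the checkpoint kinases, Atm had 97, Atr 63 and Chek1 60, and Chek2 none at an end. The 4 genes of the chromatin response at breaks, Trp53bp1, Mdc1, Rnf8 and Rnf168, had none at an end.

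Msh3 was the single gene of the 53 at whose start both lists had overlapping hotspots. The wild type hotspot had a strength of 124 and the knockout one 330. Relative to the median autosomal shared hotspot of each list (182 and 151), the knockout value was 3.21-fold higher (log2 1.68, counting interval 1.37 to 2.00). The wild type hotspot was centred 1008 bp from the gene end, just outside the 1 kb window, and the knockout one 225 bp from it.

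**Figure D2:**
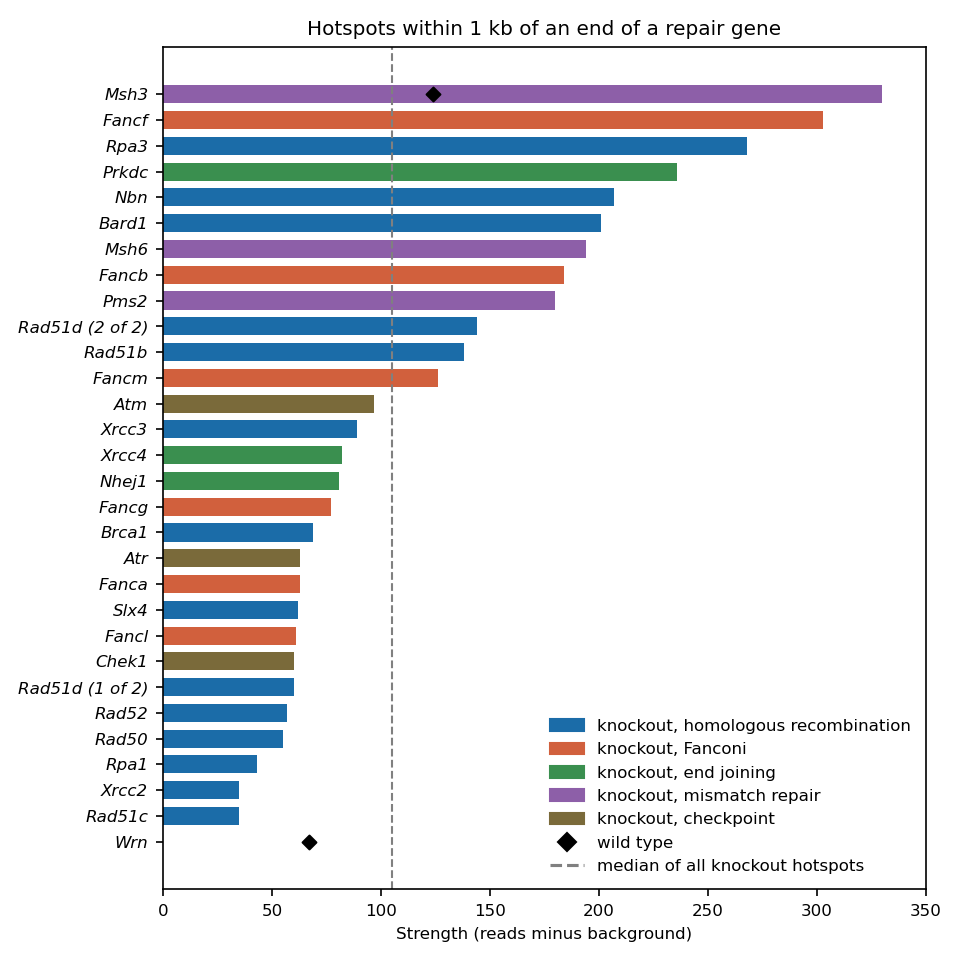
Strength (reads minus background) of each hotspot at an end of a repair gene. Bars are the knockout list, coloured by pathway, black diamonds the wild type list, and the dashed line the median of all knockout hotspots (105). Diamonds stand only at Msh3 (124) and Wrn (67), and bars run from 35 for Rad51c and Xrcc2 to 330 for Msh3. Rad51d has 2 bars.

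In the knockout list, the members nearest to the limit of the window were Rad52 and Mus81. The Rad52 hotspot was centred 936 bp from the gene end, but at -40 bp (upstream) from an annotated start of that gene. The nearest knockout hotspot of Mus81 (157) lay 2479 bp from its end. Among the 28, the centre of 14 was at most 250 bp from the gene end and that of 22 at most 500 bp.

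The side of the gene is known for most of these hotspots. A RefSeq table of gene starts covers 43 of the 53 genes. The 22 knockout-only hotspots at ends of these genes all lay at the start side and 0 at the 3' end. No wild type hotspot lay within 1 kb of a listed start of any of the 43 genes (0 of 43), against 0.903% of all genes in the table. The other 6 hotspots belong to 5 genes outside the table. Among them Rad51d had 1 at each of its ends (144 at the lower coordinate, 60 at the higher), so 1 of these is at its 3' end. Among all 17273 protein-coding genes of that table, 27.8% had a knockout-only hotspot within 1 kb of a listed start and 1.27% within 1 kb of the 3' end. Measured from listed starts, 22 of 43 repair genes (51.2%, 35.5 to 66.7) had one.

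These 22 genes are not quite those found from gene ends. Slx4 and Fancm had the hotspot at the outer end of a longer gene model, at -2095 and -1610 bp from their listed starts, negative being upstream. Fancc (strength 141) and Xrcc6 (53) had a knockout-only hotspot at a listed start, at 388 and -108 bp from it, that lies inside a longer gene model. Counted at either an end or a listed start, 29 of 53 repair genes (54.7%) had a knockout-only hotspot, against 28.1% of all protein-coding genes.

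Hotspot centres lay farther from the repair genes' own listed starts than from listed starts in general. The median distance was 285 bp for the 22 repair genes and 127 bp over 4843 pairs of a gene and a hotspot in all genes. Of the 22, 9 lay within 250 bp of the start, against 77.9% of all pairs. They fell on both sides, 13 upstream and 9 downstream, while 43.3% of all pairs lay upstream. Of the 22 genes, 14 had another gene's end within 1 kb of the start. Among knockout-only hotspots at repair gene ends, 16 were also within 1 kb of a neighbour's end. Their median distance to the nearer end was 105.5 bp, and that end was the neighbour's in 11 and the repair gene's in 5. The part that neighbouring genes have in the larger distance was not tested.

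**Figure D3:**
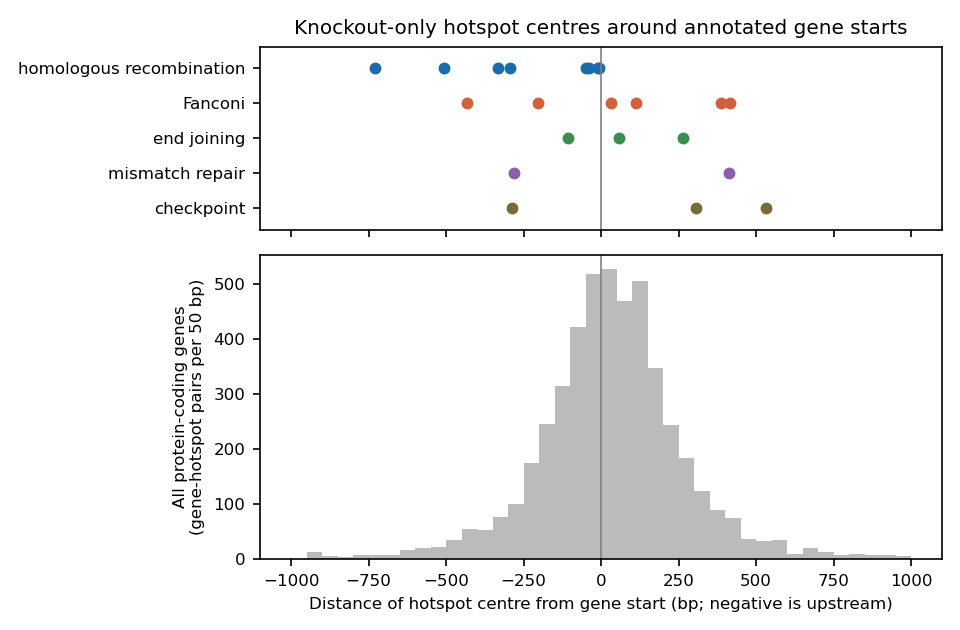
Distance of knockout-only hotspot centres from the listed gene start in bp, negative upstream. Upper panel, 1 point for each of 22 repair genes by pathway. Lower panel, all protein-coding genes, as gene and hotspot pairs per 50 bp. The repair genes reach from -728 to 531 bp, while the pairs of all genes crowd around 0.

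Many of the hotspots lay close to ends of more than 1 gene. Of the 28 knockout-only hotspots at ends of repair genes, 16 (57.1%) were also within 1 kb of an end of another protein-coding gene, against 13.2% of all such hotspots. In 14 of the 16 that end was the neighbour's own start, in 1 its 3' end, and the side of Mcm4 was not determined here. The distance between the ends of the 2 genes was 21 to 959 bp, with a median of 149.5 bp. In 12 pairs the genes stand apart, and in 4 (Fancb, Fancf, Atr and Rpa1) they overlap by that distance. In 11 of the 16 the hotspot was centred nearer to the end of the neighbour than to that of the repair gene. The share of 57.1% was reached through genes, while 13.2% counts each hotspot once, so they are not counted alike. By gene, 14 of the 22 repair genes with a knockout-only hotspot at a listed start had another gene's end within 1 kb of it. Of all such protein-coding genes, 20.3% had one.

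The pairs join repair genes to genes of varied function. Brca1 (strength 69) shared its hotspot with Nbr1, an autophagy receptor gene, whose end lay 152 bp away. Atm (97) shared one with Npat, a regulator of histone genes, 61 bp away, and Prkdc (236) with Mcm4, a subunit of the replicative helicase, 44 bp away. Pms2 (180) shared one with Aimp2, a gene of the tRNA synthetase complex, 62 bp away. Rad51c (35) shared one with Tex14, a gene of the bridges between germ cells, 59 bp away. For Rad51b the centre was 728 bp from its own end and 231 bp from that of Zfyve26. The stronger hotspot of Rad51d (144) was centred 737 bp from its end and 13 bp from that of Rffl. The other pairs were Fancf with Gas2, Rpa3 with Umad1, Fancb with Mospd2, Fancm with Fkbp3, Xrcc3 with Zfyve21, Xrcc4 with Tmem167, Nhej1 with Slc23a3, Atr with 1700065D16Rik and Rpa1 with Smyd4. Hotspots beside a neighbour had a median strength of 111.5 and those without one 61.5.

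Starts of repair genes are often close to another gene. In the table of starts, 21 of 43 repair genes had an end of another protein-coding gene within 1 kb of the start, against 14.1% of all genes. A knockout-only hotspot was found at the start of 14 of these 21 (66.7%, 43.0 to 85.4) and of 8 of the other 22 (36.4%, 17.2 to 59.3). Over all genes the same shares were 40.1% and 25.7%. The intervals of the repair genes overlap.

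Starts of repair genes are also mostly rich in CpG. A start window, 250 bases before and 50 after the start, was called CpG-rich with a G plus C content of at least 50% and an observed to expected CpG ratio of at least 0.6, a split added after the data were seen. This held for 34 of 43 repair genes (79.1%), against 46.3% of all genes. Of all genes with a CpG-rich start, 47.1% had a knockout-only hotspot there, against 11% of the others. Of the repair genes with a CpG-rich start, 18 of 34 had one (52.9%, 35.1 to 70.2). The share of all genes with such starts lies within that interval. Of the 9 repair genes with other starts 4 had one (44.4%, 13.7 to 78.8). The part that CpG content or neighbouring genes have in the share of repair genes was not tested.

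**Figure D4:**
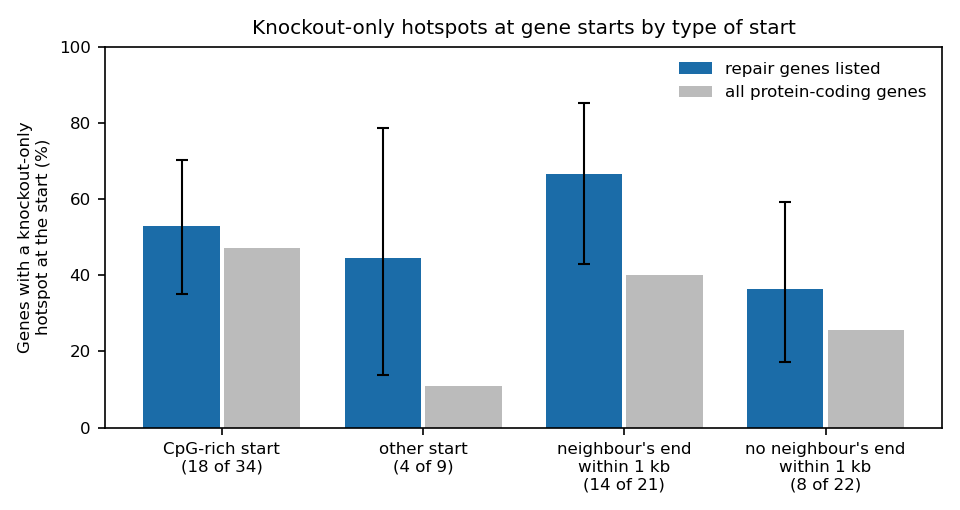
Percentage of genes with a knockout-only hotspot within 1 kb of a listed start, by type of start, for repair genes (blue, with exact 95% binomial interval) and all protein-coding genes (grey). The 2 bars are close for CpG-rich starts (52.9% and 47.1%), and the interval of repair genes lies above the grey bar for other starts (11%) and for starts beside a neighbour's end (40.1%).

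As examples of sequence before a start, a stretch is printed for 5 repair genes from the RefSeq table (GRCm38.p6), 5′ to 3′ on the strand of the gene. Capitals mark GGGCGG (a GC box), CCGGAA (the core of an ETS site) and CCAAT, on either strand. The first 3 are those with the strongest knockout-only hotspots and at least 100 bases outside any annotated gene. Each of these stretches lies within the span of the hotspot, but the hotspot centre lies outside it. The centres were 331, 414 and 728 bp from the gene ends of Rpa3, Msh6 and Rad51b. Rpa3 (chr6:8259142-8259287, minus strand) is shown with all the sequence between it and Umad1, Msh6 as chr17:87974800-87975049 and Rad51b as chr12:79297032-79297281, both on the plus strand.
Rpa3: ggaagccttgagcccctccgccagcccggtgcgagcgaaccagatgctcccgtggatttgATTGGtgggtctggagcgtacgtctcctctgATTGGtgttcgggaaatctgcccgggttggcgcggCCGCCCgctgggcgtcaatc
Msh6: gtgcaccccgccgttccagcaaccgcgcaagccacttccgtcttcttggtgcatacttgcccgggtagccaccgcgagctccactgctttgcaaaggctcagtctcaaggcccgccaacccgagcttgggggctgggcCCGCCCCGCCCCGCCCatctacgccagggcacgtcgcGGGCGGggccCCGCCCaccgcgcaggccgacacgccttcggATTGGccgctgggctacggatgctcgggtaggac
Rad51b: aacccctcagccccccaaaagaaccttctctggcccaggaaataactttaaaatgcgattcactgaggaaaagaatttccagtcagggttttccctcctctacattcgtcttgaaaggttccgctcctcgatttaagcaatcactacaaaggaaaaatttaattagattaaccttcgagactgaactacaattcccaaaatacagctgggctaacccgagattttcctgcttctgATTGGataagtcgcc
For comparison, Fance (chr17:28313280-28313529) and Rnf168 (chr16:32277211-32277460), both on the plus strand, had no hotspot of either list at an end.
Fance: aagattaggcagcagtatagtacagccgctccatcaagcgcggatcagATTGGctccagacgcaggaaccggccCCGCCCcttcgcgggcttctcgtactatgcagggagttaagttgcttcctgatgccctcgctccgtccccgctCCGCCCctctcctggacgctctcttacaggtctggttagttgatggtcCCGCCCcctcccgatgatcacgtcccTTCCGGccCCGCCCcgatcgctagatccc
Rnf168: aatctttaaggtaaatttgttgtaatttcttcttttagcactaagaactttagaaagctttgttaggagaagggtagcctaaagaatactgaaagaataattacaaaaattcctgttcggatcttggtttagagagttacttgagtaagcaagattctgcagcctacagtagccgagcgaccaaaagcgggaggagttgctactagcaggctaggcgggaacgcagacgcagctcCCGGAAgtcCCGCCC

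Base composition varied on both sides. Msh6 has 27 CpG and 70.8% G plus C and Rpa3 has 14 CpG in its shorter stretch and 65.1%, but Rad51b has 7 CpG and 42.8%. Fance, with no hotspot, has 21 CpG and 62.4%, and Rnf168 has 9 and 43.6%. GC boxes stand in Rpa3, Msh6, Fance and Rnf168, and CCAAT in all but Rnf168. CCGGAA stands in Fance and Rnf168, which had no hotspot at an end, and in none of the other 3.

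Over whole start windows, GGGCGG was found in 29 of 43 repair genes against 46.9% of all genes (76.8% of those with a CpG-rich start). CCGGAA was found in 19 (44.2%), against 19.3% of all genes and 31.4% of those with a CpG-rich start. CCAAT was found in 26 (60.5%), against 39.6% and 37.4%. Among repair genes with a knockout-only hotspot at the start, 16 of 22 held GGGCGG, 11 CCGGAA and 13 CCAAT. Among the 21 without, the counts were 13, 8 and 13. The other motifs searched were rarer. TGACGTCA stood in 1 repair gene (2.36% of all genes, 3.89% of those with a CpG-rich start) and TTTNGCGC in 2 (1.78% and 2.80%). TTTGAA stood in 3 (6.98% of repair genes, against 16% and 8.85%). The NRF1 motif stood in 5 (11.6%, against 6.74% and 13.3%). A match shows only that these letters are present. Both strands were searched, and motifs could overlap one another.

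Inside the genes, over 1 kb from both ends, the 2 lists gave close counts. The wild type list had 33 hotspots inside 19 of the 53 genes (35.8%, 23.1 to 50.2), and the knockout list 27 inside 18 (34.0%, 21.5 to 48.3). Over all protein-coding genes these shares were 18.9% and 21.3%, but repair genes are longer, with a median of 39.2 kb against 17.3 kb. Per Mb of gene interior, repair genes had 9.73 wild type hotspots (exact Poisson interval 6.69 to 13.7) and 7.96 knockout hotspots (5.24 to 11.6), against 6.67 and 7.89 over all protein-coding genes. The background value of the knockout lies within the interval and that of the wild type just below it.

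Knockout-only hotspots were few inside repair genes. Of the 27 knockout hotspots there, 3 (11.1%) were knockout-only, against 31.3% over all protein-coding genes. They lay inside 3 of 53 genes (5.66%, 1.18 to 15.7), against 9.08% of all. These were Rbbp8 (208) and, at listed starts, Fancc and Xrcc6. Wild-type-only hotspots numbered 8 of 33 (24.2%, against 18.4%). They were strongest in Pms2 (299) and Xrcc6 (178), then Fanca (96), Bard1 (90), Rpa1 (87 and 52), Xrcc5 (72) and Msh3 (36). The 2 in Rpa1 flank a shared hotspot of the same gene.

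The 5 strongest wild type hotspots inside repair genes, picked by wild type strength, were all shared and all weaker in the knockout. Stronger shared hotspots were mostly lower in all protein-coding genes too: 78.7% of those at or above the median wild type strength were lower in relative strength. The strongest of the 5, in Atm on chromosome 9 from 53497506 to 53499640, had a wild type strength of 929 and a knockout strength of 237. In Nhej1 these were 908 and 166, in Rnf168 827 and 480, in Rpa1 786 and 187, and in Wrn 776 and 246. The 5 strongest of the knockout were a hotspot of Rad51b (wild type 454, knockout 507), that of Rnf168, another of Wrn (732 and 387), that of Chek2 (665 and 333) and that of Prkdc (572 and 283).

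In all, 25 shared hotspots lay at or inside 16 repair genes, and 21 of them (84%) were lower in the knockout in relative strength, against 61.4% at or inside all protein-coding genes. The median log2 ratio of knockout over wild type was -0.87, a 1.82-fold lower relative strength, beside -0.30 for the 5753 shared hotspots at or inside all protein-coding genes. Of the 25, 12 (48%) were over 2-fold lower, against 24.5% of those at or inside all protein-coding genes, and 2 over 2-fold higher, against 8.66%. The counting interval lay below 0 for 20, above 0 for 4 and spanned 0 for 1. Hotspots of a gene share a locus and are not replicates.

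Wild type strength moved with this ratio. The shared hotspots of repair genes had a median wild type strength of 467, against 210 over all protein-coding genes. Among shared hotspots at or above the median wild type strength of the list, 11 of 20 in repair genes (55%) and 37% at or inside all protein-coding genes were over 2-fold lower. Lower by any amount were 18 of 20 (90%), against 78.7%, and over 2-fold higher 0 of 20, against 1.89%. The median log2 ratios were -1.16 and -0.69. The part of wild type strength in the result was not tested.

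The largest decreases came from several pathways. In Nhej1, the hotspot of 908 and 166 was 4.54-fold lower (log2 -2.18, counting interval -2.43 to -1.93), and one of 467 and 140 was 2.77-fold lower. In Slx4, 1 of the 2 shared hotspots fell from 260 to 49, 4.40-fold lower (log2 -2.14, -2.63 to -1.65). The hotspot in Rpa1 was 3.49-fold lower and that in Atm 3.25-fold. In Fancc (726 and 198) the value was 3.04-fold lower, in Bard1 (754 and 211) 2.96-fold, in Msh3 (110 and 32) 2.85-fold, in Wrn (776 and 246) 2.62-fold and in Xrcc5 (270 and 105) 2.13-fold.

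Rad51b, the longest gene of the list at 551 kb, held hotspots that went both ways. Of its 4 shared hotspots, those of 756 and 266 and of 588 and 208 were 2.36-fold and 2.35-fold lower in the knockout. The one of 454 and 507 had a log2 ratio of 0.43 (0.24 to 0.61), and a weak one of 42 and 74 had 1.09 (0.50 to 1.68). A higher value was also found in Xrcc4 (161 and 227, log2 0.77, 0.46 to 1.07). All 4 shared hotspots of Nhej1 were lower, by 1.45-fold to 4.54-fold.

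**Figure D5:**
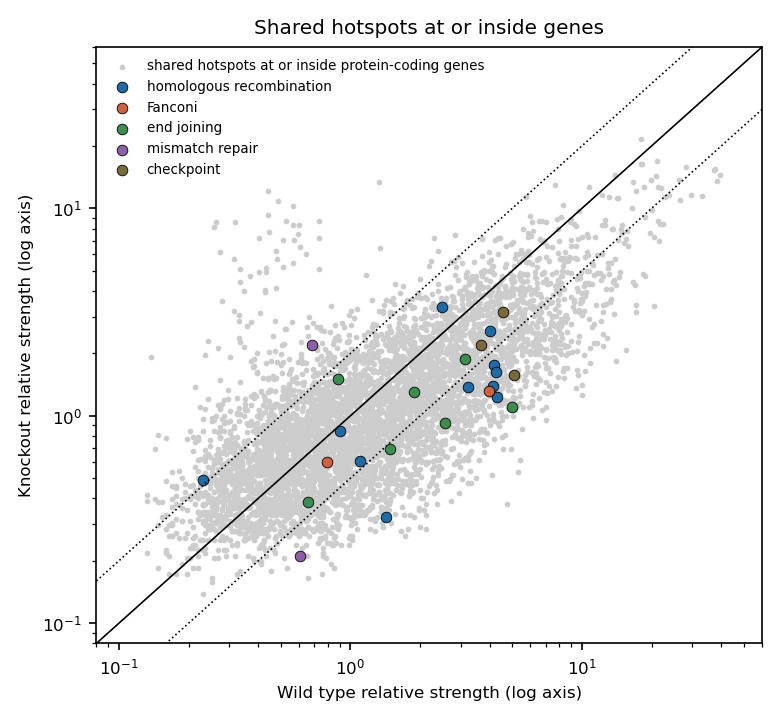
Relative strength of shared hotspots in the wild type (horizontal) and the knockout (vertical), both on log axes, at or inside all protein-coding genes (grey) and repair genes (coloured by pathway). The solid line marks equal values and dotted lines a 2-fold difference. Of 25 coloured points, 21 lie below the solid line and 12 below the lower dotted line.

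Across the whole list, 11 genes had both a knockout-only end hotspot and a wild type hotspot inside, 16 had the former without the latter, and 8 the latter without the former. Over all protein-coding genes these classes held 6.64%, 18.9% and 12.3%, beside 20.8%, 30.2% and 15.1% of the 53. In 17 of 53 genes (32.1%) neither list had a hotspot at an end or inside, against 56.9% of all protein-coding genes. Beside those already named, they include Blm, Rmi1, Mus81, Eme1 and Fance, as well as Trp53bp1, Mdc1 and Rnf8. For 34 genes (64.2%) the wild type list had none, against 79.5% of all protein-coding genes. Repair genes are longer, as given above, and the part of length in these shares was not tested.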

How the data were processed

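DMC1-SSDS of whole testis was deposited as 1 hotspot list for each genotype, without chromosome Y per the file names, and each list was treated as 1 sample. Tools named in the submitters' processing notes, are MACS2, BWA, Bowtie2 and CASAVA, and the build is mm10. How the 2 samples of a genotype were joined, and whether depths were matched, was not stated in the labels or files. Per the file headers, each hotspot has a deposited read count. Its deposited background is a scaled estimate, treated as a score. Strength, a signal value deposited by the authors, was reads minus background for 100% of hotspots. The deposited percent relates strength to the list's sum, and the deposited rank score orders it. Background made up 4.39% of wild type and 6.03% of knockout reads in hotspots. Positions are as the lists give them. Total library depth was not used here.

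Genes, starts and sequences came from RefSeq (GRCm38.p6, the coordinates of mm10). Of the 90 other repair genes, 89 matched by symbol and 1 by synonym. Hotspots were assigned by their centre within 1 kb of a gene end or start, or inside a gene over 1 kb from both ends, with Python 3.11.15 and pandas 2.3.3. Placement and pairing were tested on simulated data. Shares have exact (Clopper-Pearson) 95% intervals from SciPy 1.17.1. The log2 ratio of a shared hotspot compares strengths divided by the median autosomal shared strength of each list, and its counting interval uses the reads alone, without variation between animals. The members, gene lists, pathways and motifs were chosen with earlier results of these data known. Values are given for hotspots at ends, the 5 strongest inside for each list, and shared ones over 2-fold different. The printed sequences depart from the plan: stretches that overlap an annotated gene were passed over. Windows, overlap rules, strength limits and scalings were varied.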

Additional observations from a re-analysis of the deposited data

How the results depend on the processing

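Of 35 alternatives, 24 left a value within 1.5 times its count or within its interval, and 11 moved it further. Only the median log2 ratio has a direction that could reverse, and it stayed negative under each other scaling. The count of 27 repair genes with a knockout-only hotspot at an end stayed between 22 and 27 with windows of 500 bp and 2 kb, with hotspots covering the end base, in autosomal genes and under other rules for shared. It dropped to 11 (20.8%, against 11.1% of all protein-coding genes) with hotspots at or above the median strength of the list, and to 13 (24.5% against 14.6%) with the knockout list reduced to its strongest hotspots, equal in number to the wild type list. With any knockout hotspot the 2 settings gave 12 (22.6% against 12.3%) and 14 (26.4% against 16%). These settings keep fewer hotspots. Counting for the nearest gene end alone gave 17. The wild type count of 1 became 0 within 500 bp or among the stronger hotspots, and 2 within 2 kb or with hotspots covering the end base, which then take in Msh3. Of the 2 shared hotspots over 2-fold higher, 1 remained with strength as deposited and 1 with strength as a share of the list, while 15 and 13 were over 2-fold lower. Strength as deposited shifts every log2 ratio by -0.27, and the median ratio ranged from -1.14 to -0.78. No paired analysis was possible because each genotype has 1 list and no values per animal, and for the same reason leaving out an animal could not be done. Absence from a list covers only hotspots above its calling threshold.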

Other observations

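On X, 2 of the other repair genes had a shared hotspot at the start that was stronger in the knockout. At Cetn2, a centrin gene with a role in nucleotide excision repair, the wild type strength was 60 and the knockout strength 434 (log2 3.12 in relative strength, counting interval 2.72 to 3.53), and Nsdhl starts 177 bp away. At Brcc3, a deubiquitinase gene of the BRCA1-A complex, it was 65 and 411 (2.93, 2.53 to 3.33), and Cmc4 starts 44 bp away. The third such gene with a hotspot of the wild type list at an end was Ddb1 on chromosome 19, with 83 and 65 (-0.08, -0.57 to 0.41) at its 3' end. Fancb, the single gene of the main list on X, had 184 in the knockout and no wild type hotspot. These genes were chosen after their values were seen. Of shared hotspots at or inside all protein-coding genes, 8.66% were over 2-fold higher in the knockout. The share on X alone is not given here, and the ratios are scaled to autosomal hotspots.

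Counted for the nearest gene end alone, the 90 other repair genes kept 34 with a knockout-only hotspot (37.8%, 27.8 to 48.6), against 22.7% of all protein-coding genes.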
